A study of Rattus norvegicus with 9 samples.

Results

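Genes of the nitric oxide, cyclic GMP and endothelin pathways were examined in thoracic aortas from the offspring of diabetic and of control rats. Of 9 genes listed for their known function in these pathways, 7 had a probe with that sole gene symbol among 9653 named genes: Gucy1a1, Gucy1b1, Prkg1, Pde5a, Nos3, Ece1 and Edn1, with 1 probe each. The endothelin receptor genes Ednra and Ednrb were not analysed here. Total RNA of an offspring of a diabetic mother and of an offspring of a control mother was labelled with Cy3 and Cy5 and put on the same two-colour Agilent array, so each value is the log ratio of 2 animals. The 9 arrays came from 5 such pairs of animals, and a pair carries the number of its animal from a diabetic mother: 193, 194, 197, 199 or 220. Their partners from control mothers were animals 189, 190, 191, 192 and 216, in that order. Strain, sex, age, litter and the way maternal diabetes was brought about are not given in the labels.

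In the vessel wall, endothelial cells make nitric oxide, which diffuses into smooth muscle and binds soluble guanylate cyclase, an enzyme built of an alpha and a beta subunit. The cyclase makes cyclic GMP, which switches on a protein kinase that relaxes the muscle, and phosphodiesterases end the signal by breaking cyclic GMP down. Endothelin acts the other way: the endothelium secretes it as a precursor, a converting enzyme cuts it into a potent constrictor peptide, and receptors on smooth muscle pass the signal on.

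The signs below are those of the deposited values, and the sources used here do not say which group a positive value stands for, so a direction is given here as positive or negative alone. The base of the logarithm is not stated either, and values are taken as log2. A Cy3 array below is one on which the animal from the diabetic mother carried Cy3, and a Cy5 array one on which it carried Cy5. Pairs 193, 197, 199 and 220 have an array of each kind, averaged into 1 value per pair. Pair 194 has a Cy3 array alone, so its dye effect could not be averaged out. Both kinds of array were read as running the same way, which the labels do not state. For this reason the value on each array is given, and the means are also given for Cy5 arrays multiplied by -1, called turned. The values are ratios, so the level of a gene in the tissue is unknown, and the tissue could not be checked against the level of its markers. The SD of the 22575 features lay between 0.27 and 0.57 on the single arrays. Of 19478 features tested with limma, 0 (0%) had an adjusted p under 0.05, and 929, or 4.77%, had an unadjusted p under 0.05.

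Promoter sequences of the 2 cyclase subunits, whose values ran together, and of both measured endothelin genes are shown because the results turn on these 4 genes. Each line gives the 250 bases before the transcript start on the strand of the gene, 5′ to 3′, from RefSeq (GRCr8, rat). All 7 measured genes had an entry. Capitals mark matches on either strand to the TATA box (TATAAA), the CCAAT box (CCAAT) and the GC box (GGGCGG).
Gucy1a1, chr2:169779624-169779873, minus strand: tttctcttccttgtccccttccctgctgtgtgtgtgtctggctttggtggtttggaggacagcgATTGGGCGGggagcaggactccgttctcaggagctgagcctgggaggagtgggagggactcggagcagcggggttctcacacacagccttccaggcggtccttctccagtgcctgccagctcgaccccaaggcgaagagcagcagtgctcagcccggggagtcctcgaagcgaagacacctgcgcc
Gucy1b1, chr2:169696988-169697237, minus strand: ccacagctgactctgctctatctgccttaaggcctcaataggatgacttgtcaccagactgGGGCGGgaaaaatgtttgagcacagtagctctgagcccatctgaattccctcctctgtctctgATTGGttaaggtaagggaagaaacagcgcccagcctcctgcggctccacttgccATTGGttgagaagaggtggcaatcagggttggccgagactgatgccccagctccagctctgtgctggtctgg
Ece1, chr5:155360781-155361030, plus strand: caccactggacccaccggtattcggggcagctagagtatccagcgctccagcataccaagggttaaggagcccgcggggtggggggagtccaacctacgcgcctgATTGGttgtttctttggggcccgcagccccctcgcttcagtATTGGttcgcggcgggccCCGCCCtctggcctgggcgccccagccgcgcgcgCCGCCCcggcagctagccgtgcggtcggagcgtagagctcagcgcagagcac
Edn1, chr17:22666688-22666937, minus strand: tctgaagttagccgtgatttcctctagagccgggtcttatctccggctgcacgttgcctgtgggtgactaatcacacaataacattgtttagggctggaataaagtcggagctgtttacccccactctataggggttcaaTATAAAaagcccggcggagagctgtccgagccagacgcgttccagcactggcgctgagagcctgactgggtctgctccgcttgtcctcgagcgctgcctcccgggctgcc

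The window of Edn1 held a TATA box and no match to the other motifs. Neither cyclase window held a TATA box, and both held GC and CCAAT boxes, with 1 and 1 in Gucy1a1, where they overlap, and 1 and 2 in Gucy1b1. The window of Ece1 held 2 GC and 2 CCAAT boxes. Over the 33469 windows of the table, a TATA box was found in 12.9%, a CCAAT box in 34% and a GC box in 30.5%. The AP-1 motif (TGACTCA), found in 4.05% of all windows, and the CArG box, a motif of many smooth muscle genes found in 1.5%, had no match in these 4 windows. A match describes the letters only. Gucy1a1 and Gucy1b1 are near neighbours on chromosome 2 of the RefSeq annotation, with 1 annotated gene between them, and both are read from the minus strand.

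Gucy1a1 encodes the alpha 1 subunit of soluble guanylate cyclase, and its mean log ratio was the largest in size of the 7 genes. On the Cy3 arrays of pairs 193, 194, 197, 199 and 220 it was at -1.18, 0.54, -1.55, -0.37 and -0.25. On the Cy5 arrays it was at -1.36, -1.36, -0.38 and -0.62 in pairs 193, 197, 199 and 220. The value was thus negative on 8 of 9 arrays, lowest in pairs 193 and 197 and positive in pair 194, and it had 1 sign on both arrays of each swapped pair. Such a sign in all 4 swapped pairs was found for 9.77% of all features. Its pair values had a mean log ratio of -0.60 ± 0.80 (SD, n = 5 pairs; limma unadjusted p = 0.053, adjusted p = 0.926), so the mean was smaller than the spread between pairs. Without pair 194 the mean was -0.88 (limma adjusted p = 0.754), and without pair 197 it was -0.38 (adjusted p = 0.954).

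The 2 arrays of a swapped pair lay close for Gucy1a1, 0.19 apart on average against a median of 0.32 over all features, while its SD over the pairs exceeded that of 97.8% of features. Most of its variation was therefore between pairs and not between the arrays of a pair. With turned Cy5 arrays its mean would be 0.14 ± 0.24 (limma adjusted p = 0.484), since the arrays of each swapped pair would then largely cancel. Pair 194, which has no Cy5 array, would keep its 0.54 in that mean.

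Gucy1b1 encodes the beta 1 subunit, without which the alpha 1 subunit is not active. In pairs 193, 194, 197, 199 and 220 it was at -0.51, 0.33, -1.10, 0.40 and 0.063 on the Cy3 arrays. On the Cy5 arrays it was at -0.52, -0.19, 0.40 and -0.11 in pairs 193, 197, 199 and 220. It was low in the same pairs as Gucy1a1, 193 and 197, and positive in pairs 194 and 199, and the arrays of pair 197 differed by 0.91. Its mean log ratio was -0.091 ± 0.48 (n = 5 pairs, limma adjusted p = 0.965), and -0.0078 with the Cy5 arrays turned. The mean turned positive without pair 193 (0.015) and without pair 197 (0.047).

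Over the 9 arrays the log ratios of the 2 subunits had a Pearson r of 0.83, the highest among the 21 combinations of the 7 genes. This is a description: the 9 arrays share 5 pairs of animals, and the part of cell makeup in this r was not tested. In 4 of 5 pairs the log ratio of Gucy1a1 lay below that of Gucy1b1, and the differences were -0.75, -0.82, -0.78 and -0.41 in pairs 193, 197, 199 and 220. Pair 194 went the other way, with 0.21. The mean difference, Gucy1a1 minus Gucy1b1, was -0.51 ± 0.43 (exact sign-flip permutation test, two-sided, p = 0.125 and adjusted p = 0.188 over 2 differences tested). With 5 pairs this test cannot give a p under 0.0625. With the Cy5 arrays turned the difference would be 0.15.

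The mean of markers of smooth muscle, the cell type in which this cyclase acts in the vessel wall, had a like order over the pairs. Single markers did not all follow it. Lmod1 was at 0.73 in pair 193 and -1.34 in pair 194, and Cald1 at 0.31 in pair 197 and -0.29 in pair 194. The mean of the 11 measured of 15 contractile markers was -0.61, 0.20, -1.15, 0.25 and -0.088 in pairs 193, 194, 197, 199 and 220. Of the 11, 9 had negative means and 2 positive, and none passed. Adipocyte markers, 10 of 12 measured, had means of 2.36 and 2.02 in pairs 197 and 199, against -0.11 to -0.0014 in the other pairs. Adipsin (Cfd), a protein secreted by fat cells, was at 2.74 and 2.83 in pairs 197 and 199. In pairs 193, 194 and 220 it was at -0.20, 1.06 and 0.057. The adipocyte list had a median of 0.19 in pair 194, where Ucp1 was at -2.19. Lep was at 0.081 and -0.098 in pairs 197 and 199. In such bulk RNA, fewer cells of a type and less RNA per cell cannot be told apart. The part of smooth muscle content in the cyclase values was not tested. At an adipocyte mean of 0, by a fit with that mean as a covariate, Gucy1a1 was at -0.39 and Gucy1b1 at -0.054, and without pairs 197 and 199 they were at -0.39 and -0.071.

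**Figure D1:**
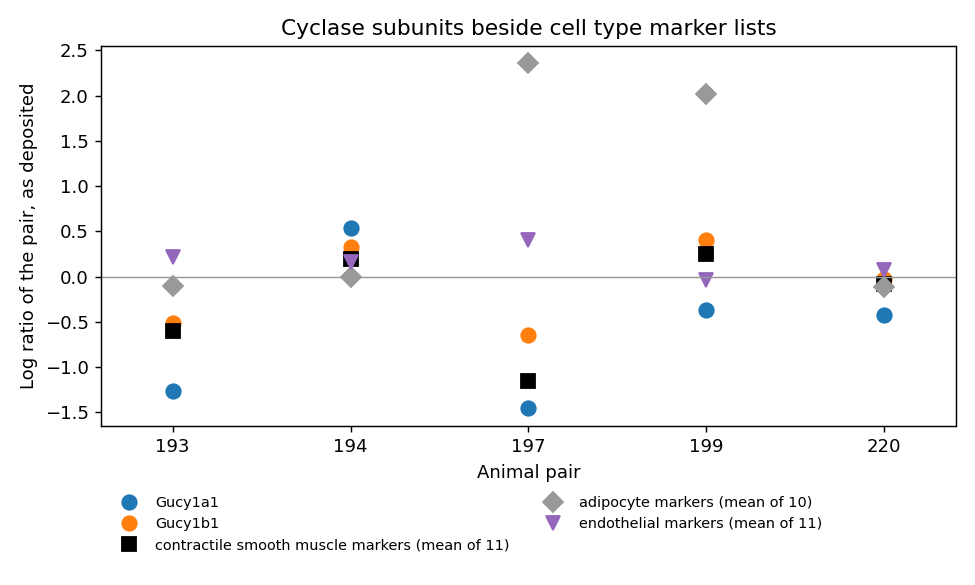
Log ratio of each animal pair, as deposited, for Gucy1a1, Gucy1b1 and the means of 3 lists of cell type markers. Both subunits and the contractile marker mean are below 0 in pairs 193 and 197, while the adipocyte marker mean is above 2 in pairs 197 and 199 only.

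Prkg1 encodes the cyclic GMP-dependent kinase that relaxes smooth muscle, and it was the 1 measured gene with the same sign in all 5 pairs. Its Cy3 arrays were at 0.096, 0.034, 0.40, 0.74 and 0.13 in pairs 193, 194, 197, 199 and 220. Its Cy5 arrays were at 0.0098, 0.024, -0.14 and 0.20 in pairs 193, 197, 199 and 220, so 8 of 9 arrays were positive. The arrays of pair 199 had opposite signs. The mean log ratio was 0.15 ± 0.11 (n = 5 pairs, positive in 5 of 5; limma unadjusted p = 0.0941, adjusted p = 0.926). The exact sign-flip permutation test gave p = 0.0625, unadjusted and the smallest that 5 pairs allow. Of all features, 6.16% had 1 sign in all 5 pairs and 3.34% were positive in all, so 1 of 7 genes is no result about these genes. With the Cy5 arrays turned the mean would be 0.13 ± 0.19 (adjusted p = 0.461).

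Pde5a encodes the phosphodiesterase that degrades cyclic GMP in smooth muscle, the enzyme blocked by sildenafil. It was at -0.79, 0.20, 0.15, 0.18 and -0.77 in pairs 193, 194, 197, 199 and 220 on the Cy3 arrays, and at 0.038, -0.080, -0.39 and -0.43 in pairs 193, 197, 199 and 220 on the Cy5 arrays. Pair 220 alone among the swapped pairs had 1 sign on both arrays. The 2 arrays of a swapped pair were 0.49 apart on average, which is above the median of 0.32 over all features and above its SD over pairs of 0.32. The mean log ratio was -0.17 ± 0.32 (limma adjusted p = 0.926), with a 95% interval from -0.46 to 0.12.

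Nos3 encodes the endothelial nitric oxide synthase. Its Cy3 arrays were at 0.25, -0.022, 0.24, 0.24 and 0.24 in pairs 193, 194, 197, 199 and 220, and its Cy5 arrays at -0.034, -0.32, -0.38 and -0.15 in pairs 193, 197, 199 and 220. Its sign thus followed the dyes: in all 4 swapped pairs the Cy3 array was positive and the Cy5 array negative. The 2 orientations did not overlap among these pairs, and only pair 194 lay between them. Over all features, the signs of the 2 arrays matched in 50.7% of cases. How many features had opposite signs in all 4 swapped pairs, or orientations that did not overlap, was not counted, so neither is a trait particular to Nos3. The pair values all fell between -0.070 and 0.11, with a mean log ratio of 0.0048 ± 0.073 (n = 5 pairs, limma adjusted p = 0.997, 95% interval -0.17 to 0.18). The dye term, which sets Cy3 against Cy5 arrays with the pair as a block, was 0.43 ± 0.12 (SE, 9 arrays; limma unadjusted p = 0.00363, adjusted p = 0.0803). It did not pass. Over all features 1.62% passed this test and 21.8% had an unadjusted p under 0.05.

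With the Cy5 arrays turned, Nos3 would be at 0.18 ± 0.13 and was the 1 gene of the 7 with an unadjusted p under 0.05 in that reading (limma unadjusted p = 0.0407, adjusted p = 0.293), where 16.1% of all features were. The adipocyte and contractile marker means kept their sign across the dye swap, as deposited, in the pairs where they were large. A pair value is the mean of its arrays, so large ones tend to have arrays of 1 sign. Which group a positive value stands for cannot be told from these signs, and whether both kinds of array run the same way was not tested. The adipocyte markers had a mean of 2.48 on the Cy3 and 2.23 on the Cy5 array of pair 197, and of 1.94 and 2.09 in pair 199. In pairs 193 and 220 their mean was 0.0051 and -0.051 on the Cy3 arrays, and -0.22 and -0.17 on the Cy5 arrays. For the contractile markers the same arrays of pair 197 gave -1.21 and -1.09, while those of pair 193 gave -0.54 and -0.67. Nos3 did not keep its sign in any swapped pair. Endothelial markers, 11 of 14 measured, had means of 0.22, 0.16, 0.40, -0.038 and 0.070 in pairs 193, 194, 197, 199 and 220. Pecam1, an adhesion molecule of endothelium, was at 0.075 ± 0.18 and the VEGF receptor Kdr at 0.40 ± 0.38, and none of the 11 passed.

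**Figure D2:**
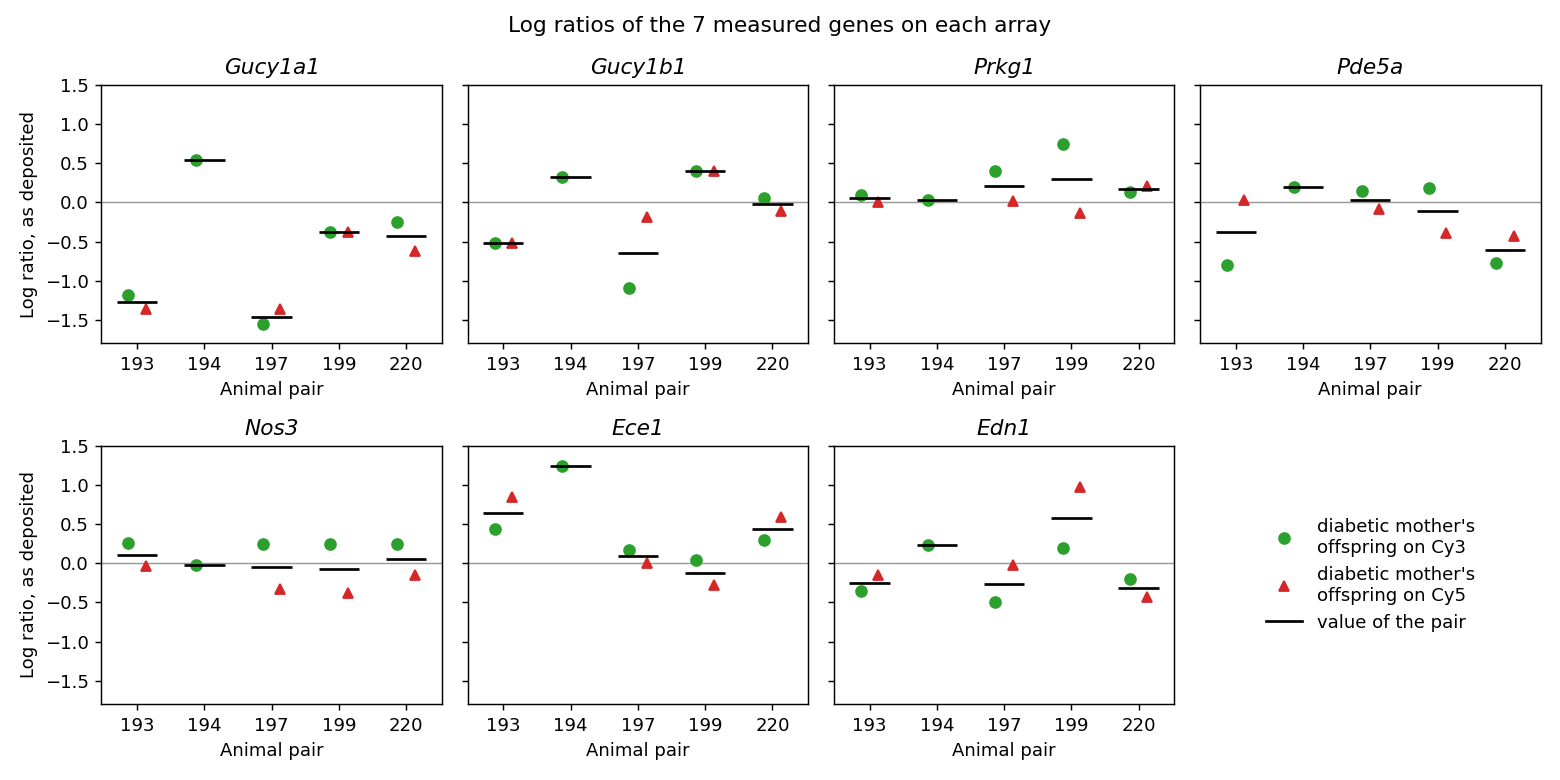
Log ratio, as deposited, of the 7 measured genes by animal pair; circles are Cy3 arrays, triangles Cy5 arrays, and bars the value of the pair. Gucy1a1 differs between pairs with the 2 arrays of a pair close together, whereas Nos3 differs between dye orientations with pair values between -0.070 and 0.11.

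Ece1 encodes the endothelin-converting enzyme, a membrane metalloprotease that releases the active peptide. It was at 0.44, 1.24, 0.17, 0.037 and 0.30 in pairs 193, 194, 197, 199 and 220 on the Cy3 arrays, and at 0.84, 0.0081, -0.28 and 0.59 in pairs 193, 197, 199 and 220 on the Cy5 arrays. Of 9 arrays 8 were positive, pair 194 was the highest, and pair 199 had arrays of opposite sign. The mean log ratio was 0.46 ± 0.53 (positive in 4 of 5 pairs), with a limma unadjusted p of 0.0362, the 1 such value under 0.05 among the 7 genes, and an adjusted p of 0.926. One gene of 7 stands beside 4.77% of all features.

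The size of the Ece1 mean leaned on pair 194, the pair with a single array: without it the mean was 0.26 (limma adjusted p = 0.754). In that pair the mean of 5 measured of 7 Schwann cell and nerve markers was 2.10, with a median of 1.15, while the means of the other 4 pairs ranged from -0.22 to 0.17. Scn7a at 5.29 and Pmp22 at 3.77 were the highest of the 5, above Sox10 at 1.15, S100b at 0.42 and Prx at -0.14. The part of this in the value of Ece1 was not tested. Without pairs 197 and 199 the mean of Ece1 was 0.77, at an adipocyte mean of 0 it was 0.73, and with the Cy5 arrays turned it would be 0.23 ± 0.58 (adjusted p = 0.578).

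Edn1 encodes preproendothelin-1, the precursor of the main endothelin of endothelium. It was at -0.36, 0.23, -0.50, 0.19 and -0.20 in pairs 193, 194, 197, 199 and 220 on the Cy3 arrays, and at -0.16, -0.026, 0.97 and -0.43 in pairs 193, 197, 199 and 220 on the Cy5 arrays. Each swapped pair had 1 sign on both arrays, negative in pairs 193, 197 and 220 and positive in pair 199, where the arrays were 0.77 apart. The pair values gave a mean log ratio of -0.0055 ± 0.39 (limma adjusted p = 0.997, 95% interval -0.34 to 0.33). Opposite signs in different pairs thus lay behind a mean near 0, whereas for Nos3 the pair values themselves were near 0. Of all features, 84.1% had a smaller SD over pairs than Edn1 and 2.24% a smaller one than Nos3.

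The converting enzyme and its substrate did not run together, with a Pearson r of -0.34 over the 9 arrays. Ece1 minus Edn1 was 0.90, 1.01, 0.35, -0.70 and 0.76 in pairs 193, 194, 197, 199 and 220, so pair 199 stood opposite to the other 4. The mean difference was 0.46 ± 0.70 (exact sign-flip permutation test, two-sided, p = 0.188, adjusted p = 0.188 over 2 differences tested). Edn1 was nearer to the cyclase beta subunit, at r = 0.74 with Gucy1b1 over the same arrays.

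**Figure D3:**
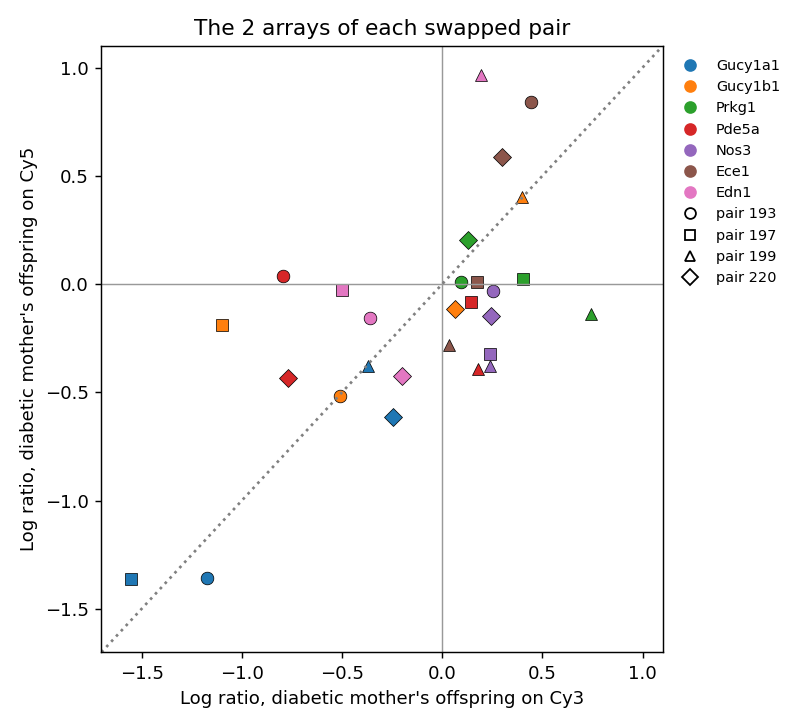
Log ratio of each gene in the 4 swapped pairs, with the Cy3 array on the horizontal axis and the Cy5 array on the vertical axis; colours are genes, shapes are pairs, and the dotted line marks equal values. The points of Gucy1a1 lie in the lower left near the line, and those of Nos3 in the lower right, where the 2 arrays have opposite signs.

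Taken as a list, the 7 genes had 3 positive and 4 negative means and a median mean log ratio of -0.0055, against 0.0037 over all features tested. None passed an adjusted p of 0.05 in limma, as deposited or with the Cy5 arrays turned. None had 1 sign on all 9 arrays, as 0.667% of all features had, and none had 1 sign in all 5 pairs with the Cy5 arrays turned, as 20.0% of all features had. Each of the 7 genes was measured on both arrays of each of 4 swapped pairs, and in 18 of these 28 cases the signs matched, against 50.7% over all features. Gucy1a1 and Edn1 had it in 4 of 4 swapped pairs, Gucy1b1, Prkg1 and Ece1 in 3, Pde5a in 1 and Nos3 in 0.

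For each gene, the named genes outside the list with the most alike values over the 9 arrays were looked up by Pearson's r, as a description. Gucy1a1 was most like Tspan3, a tetraspanin (r = 0.97), and S100a4, a calcium-binding protein (r = 0.97). Their pair values ran from -0.72 and -0.83 in pair 197 to 0.98 and 0.90 in pair 194, where Gucy1a1 had its lowest and highest values too. Gucy1b1 was most like Uba2, a subunit of the SUMO-activating enzyme (r = 0.95), and Rida (r = 0.94). Ece1 was most like Plekhg2 (r = 0.98) and Ip6k2, an inositol hexakisphosphate kinase (r = 0.96), and both were highest in pair 194 as well, at 0.17 and 0.74.

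Edn1 ran closest to Psmd5 (r = 0.96), an assembly chaperone of the proteasome, and to Pik3ca (r = 0.96), the catalytic alpha subunit of phosphoinositide 3-kinase, which were highest in pair 199. Nos3 ran closest to Sumf2 and C2cd2l (r = 0.97 and 0.96), Prkg1 to Agps and Dcaf15 (r = 0.96 and 0.95), and Pde5a to Vta1 and Ccdc115 (r = 0.96 and 0.94). C2cd2l followed the dyes as Nos3 did, with positive Cy3 arrays and negative Cy5 arrays in the 4 swapped pairs. Dcaf15 did so too, with 0.53 on the Cy3 and -0.30 on the Cy5 array of pair 199, where Agps was at 0.80 and -0.32. Over the 5 pair values the r with Prkg1 was lower, at 0.77 for Agps and 0.85 for Dcaf15. Sumf2 was positive on all Cy3 arrays, from 0.21 to 0.52, and lower on the Cy5 array of each swapped pair, from -0.29 to 0.21. The 9 arrays are not independent, and the nearest genes were picked out of 9653 named genes.

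A wider list of 67 genes of the same pathways, of which 60 were measured, held 28 positive and 32 negative means, with a median mean log ratio of -0.0091. None passed an adjusted p of 0.05, and 2 had an unadjusted p under 0.05, against 4.77% of all features. These were Kcnmb1, the beta subunit of the calcium-activated potassium channel opened by the cyclic GMP kinase (-0.22 ± 0.16, negative in 5 of 5 pairs), and Nos1ap, an adaptor of neuronal nitric oxide synthase (-0.27 ± 0.27), both named after their values were seen. Kcnmb1 was at -0.76 to -0.085 on the Cy3 arrays but at -0.068 to 0.27 on the Cy5 arrays, with opposite signs in 3 of 4 swapped pairs.

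**Figure D4:**
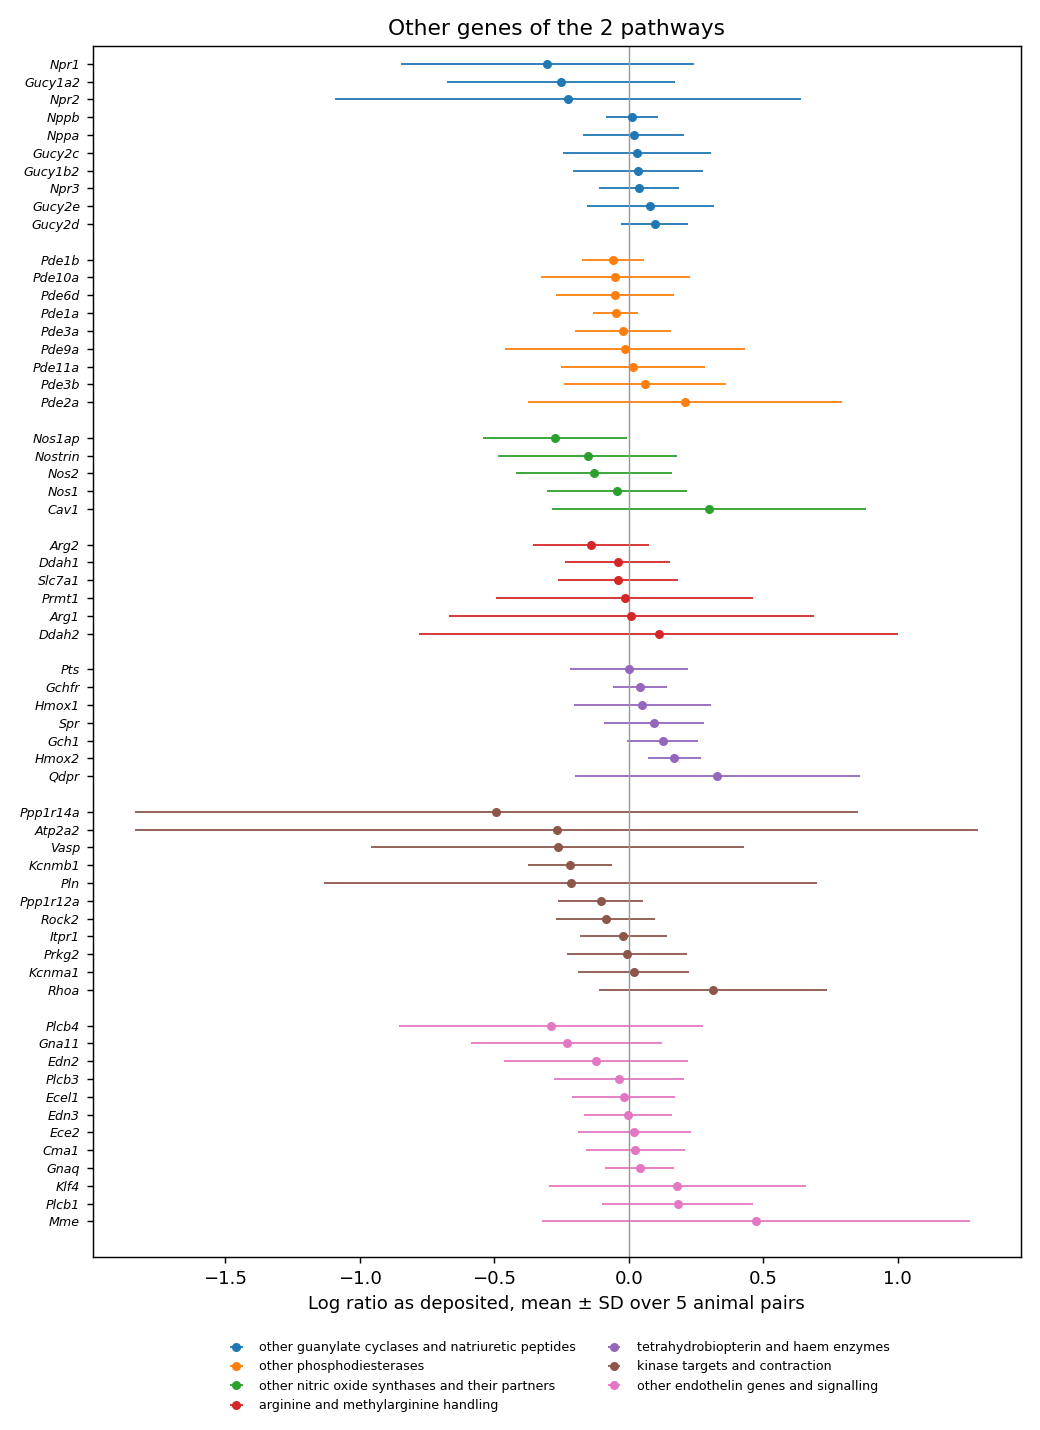
Mean log ratio, as deposited, of 60 further genes of the nitric oxide, cyclic GMP and endothelin pathways, with bars for the SD over 5 animal pairs and colours for their roles. Most bars cross 0, and those of Ppp1r14a and Atp2a2 are the longest.

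Among the genes upstream of cyclic GMP, the receptor cyclase for atrial natriuretic peptide, Npr1, had one of the 6 largest means in size, at -0.30 ± 0.54 (limma adjusted p = 0.926). It was at 0.33, -0.087, -1.16, -0.34 and -0.26 in pairs 193, 194, 197, 199 and 220, lowest in the pair where Gucy1a1 was lowest. Of 10 measured cyclases and natriuretic peptide genes, 7 had positive and 3 negative means, and of 9 other phosphodiesterases 3 and 6. Caveolin-1 (Cav1), which holds the endothelial synthase inactive in caveolae and is abundant in fat cells, was at 0.30 ± 0.58, with 1.11 and 0.73 in pairs 197 and 199 and -0.16 to -0.028 in the others. These are the 2 pairs with high adipocyte markers, and their part was not tested.

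Genes of tetrahydrobiopterin, the cofactor of nitric oxide synthases, and of the haem oxygenases had positive means in 7 of 7 measured. Their median was 0.095 and none passed, where 9991 of 19478 features had a positive mean. The smallest of the 7, Pts, was at 0.0013. Qdpr, which regenerates the cofactor, was at 0.33 ± 0.53, with 1.23 in pair 199 and -0.098 to 0.26 in the other pairs. Hmox2, the constitutive haem oxygenase, was positive in 5 of 5 pairs (0.17 ± 0.098) and was named after its value was seen. Its 2 arrays had opposite signs in each of the 4 swapped pairs, with -0.28 and 0.70 in pair 220 as the widest gap. Of 6 genes that handle arginine and its methylated forms, 2 had positive and 4 negative means.

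Targets of the kinase, parts of the contractile machinery and the kinase gene Prkg2 had 9 negative and 2 positive means of 11 measured. None passed, where 9487 of 19478 features had a negative mean. Prkg2 and Itpr1, at -0.0052 and -0.020, were the nearest to 0 of the 9. Ppp1r14a, an inhibitor of myosin phosphatase typical of smooth muscle, had the largest spread of the 6 named genes, at -0.49 ± 1.34. It was at -0.82, 0.70, -2.68, 0.33 and 0.0034 in pairs 193, 194, 197, 199 and 220. It was low in the 2 pairs where both cyclase subunits and the contractile marker mean were low. Rhoa, the small GTPase that counteracts relaxation, was at 0.31 ± 0.42, positive in 4 of 5 pairs. Among 12 measured endothelin genes and signalling partners, 6 means were positive and 6 negative. Mme, the neutral endopeptidase neprilysin that degrades endothelin and natriuretic peptides, was at 0.47 ± 0.80, with 1.48 and 1.04 in pairs 197 and 199 and -0.55 in pair 193.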

How the data were processed

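Each array's deposited file holds a log ratio for every feature, centred on a mean of 0 and read here as log2. Background correction, normalization, log base and direction are not stated in the sources used here. Scanner intensities were not used, so dim features were not filtered. Precision is limited by the number of animal pairs. Arrays of the same 2 extracts were averaged, and 22575 features became 19478 by averaging the probes of a gene. By the platform annotation 12750 features carry a single gene symbol, 5 carry more and the rest none; 12720 matched RefSeq by Entrez ID.

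Gene names rest on a renumbering of the features that the labels do not state and that was chosen with these data in view. Over the 44 pairs of probes of a gene with the largest spread, the median r over 9 arrays was 0.93 with it, and 0.18 over 44 with row numbers as deposited. Over all 4329 such pairs it was 0.059 and 0.00073. Each of the 7 genes has 1 probe, so its name has no second probe to check it.

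The comparison was an intercept-only fit over 5 pairs (limma 3.58.1 in R 4.3.3, Benjamini-Hochberg over all features), tested on simulated data. Replicate numbers pair the arrays by design, as both orientations hold the same 2 animals. Nothing says that animals came from separate litters, so p-values measure the spread between these pairs. The genes and lists were chosen with earlier results of these data known. Genes outside the 7 were named by size of mean (6 of the wider list) or by r over the 9 arrays (2 for each gene), with Cfd, Pecam1 and Kdr as marker examples; any other was named after its values were seen. The tenth array that the design text counts was not analysed here. Alternatives were turned Cy5 arrays, 1 orientation alone, centring, scaling, all 9 arrays with a replicate block, no moderation, separate probes, an adipocyte covariate and each pair left out. Leaving out pairs 197 and 199 together was chosen after seeing the data.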

Additional observations from a re-analysis of the deposited data

Results flagged for a closer look

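Of 21 groups of values checked, 3 for each of the 7 genes, 1 held a sample far from the others. On the 5 arrays where Cy3 marked the animal from the diabetic mother, Nos3 had a log ratio of -0.022 for pair 194, while the others lay at 0.24 to 0.25, a gap of 0.953 of the whole range. Chance flags about 1 in 20 such groups.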

How the results depend on the processing

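None of the 7 genes passed an adjusted p of 0.05 in limma under any of the alternatives run, and no feature did except under no moderation, where 1 passed. With the Cy5 arrays turned, Gucy1a1 changed sign to 0.14, Pde5a to 0.0026 and Gucy1a1 minus Gucy1b1 to 0.15. On Cy5 arrays alone Nos3 was at -0.22 and Edn1 at 0.090, and with all 9 arrays, a replicate block and a dye term Nos3 was at -0.023. That replicate block changed no call, and gave Gucy1a1 -0.70 and Ece1 0.39. Leaving out 1 pair in turn gave ranges of -0.88 to -0.38 for Gucy1a1, -0.21 to 0.047 for Gucy1b1, 0.12 to 0.18 for Prkg1, -0.26 to -0.063 for Pde5a, -0.021 to 0.024 for Nos3, 0.26 to 0.60 for Ece1 and -0.15 to 0.071 for Edn1. The mean turned for Nos3 without pair 193 or 220, and for Edn1 without pair 193, 197 or 220. Features passing the dye term numbered 315, and 586 with scaled arrays and 0 to 1372 with 1 pair left out, 1372 without pair 199 and 0 without any other. Without 1 pair the dye term ran from -0.23 to 0.21 for Pde5a, -0.064 to 0.25 for Ece1 and -0.19 to 0.14 for Gucy1b1. Features at an unadjusted p under 0.05 numbered 3131 with the Cy5 arrays turned, 2174 on Cy3 and 2025 on Cy5 arrays alone, 612 without pair 199, 514 without pairs 197 and 199 and 422 with the adipocyte covariate, against 929. The cause of these changes was not tested.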
